A study of Mus musculus with 9 samples.

Results

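Cirbp, Rbm3, Clk1, Clk2, Clk3 and Clk4 are 6 of the 56923 genes counted in mouse kidney RNA. They encode a pair of cold-inducible RNA-binding proteins and the 4 CDC-like kinases, and they were taken by symbol after the version was dropped from each mouse Ensembl identifier. The set was selected on measured values: levels of these genes over the 3 groups were known when it was drawn up, so their levels and differences are a description and carry no test. All animals were wild-type mice, and the tissue was kidney. Sham mice were operated on with no ischemia-reperfusion injury, and their treatment label is PBS (phosphate-buffered saline). In AKI_PBS, mice with acute kidney injury (AKI) were given PBS. Those of the AKI_PTPi_mEVs group had AKI and were given milk-derived extracellular vesicles (mEVs) carrying siRNA to PTP1B, a tyrosine phosphatase whose gene is Ptpn1, and the series asks about the role of PTP1B in AKI. Each group had 3 libraries. Age, sex, body temperature, time of day and time after injury are not given in the labels, and no group here received empty vesicles or a control siRNA, so the siRNA and its carrier cannot be told apart. The labels do not state whether each library is a different animal, and every p-value therefore measures only the spread between these libraries.

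CIRBP and RBM3 are small glycine-rich proteins with a single RNA recognition motif. Their mRNAs rise on mild cooling of cells and are low at fever temperature, and both proteins bind mRNAs and affect their stability, translation and polyadenylation. CIRBP that leaves injured cells can also act outside the cell as an inflammatory signal, and both genes vary over the day with body temperature. The CLK kinases phosphorylate the serine and arginine repeats of SR proteins, which select splice sites, and their activity rises as temperature falls within the range of a mammalian body. CLK genes also make transcripts with retained introns that stay in the nucleus, and splicing of these transcripts is itself regulated by CLK activity.

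Promoter sequences are shown for the members in which a searched motif was found, because Cirbp carries there an element described as driving its response to mild cold. The sequences are from RefSeq (GRCm38.p6), which covers 250 bases before to 50 after each gene start. Entries were matched for 4 of the 6 members: Cirbp with 2 starts, Clk2, Clk3 and Clk4. Each line gives the 250 bases before the start, 5′ to 3′ on the gene's strand, with motif matches in capitals.
Cirbp, first start, chr10:80167589-80167838, plus strand: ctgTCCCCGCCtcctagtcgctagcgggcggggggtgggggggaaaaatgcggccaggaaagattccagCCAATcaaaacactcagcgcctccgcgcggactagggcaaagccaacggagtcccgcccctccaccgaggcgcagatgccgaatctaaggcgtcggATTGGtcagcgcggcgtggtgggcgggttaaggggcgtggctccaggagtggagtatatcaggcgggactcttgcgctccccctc
Clk2, chr3:89164545-89164794, plus strand: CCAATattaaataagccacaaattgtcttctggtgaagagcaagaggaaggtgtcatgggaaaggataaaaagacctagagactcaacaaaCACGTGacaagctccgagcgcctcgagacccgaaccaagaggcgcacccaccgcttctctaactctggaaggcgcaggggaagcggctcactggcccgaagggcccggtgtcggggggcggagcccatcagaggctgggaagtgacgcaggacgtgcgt
Clk4, chr11:51262864-51263113, plus strand: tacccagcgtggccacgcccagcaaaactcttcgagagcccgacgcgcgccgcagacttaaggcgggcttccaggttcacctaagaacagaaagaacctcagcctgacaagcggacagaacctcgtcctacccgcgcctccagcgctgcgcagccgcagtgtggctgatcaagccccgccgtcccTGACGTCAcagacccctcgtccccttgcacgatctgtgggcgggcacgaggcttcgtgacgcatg
The first Cirbp window held TCCCCGCC, the letters of the mild cold response element, at bases 4 to 11, and CCAAT boxes at bases 70 to 74 and, as the reverse complement, 166 to 170. Of 32851 promoters in the same table, 5.38% held TCCCCGCC and 37.4% held CCAAT on either strand. The Clk2 window held the E-box CACGTG at bases 92 to 97, a motif present in 7.15% of promoters, and CCAAT at bases 1 to 5. The Clk4 window held the cyclic AMP response element TGACGTCA at bases 186 to 193, present in 1.79% of promoters. The heat shock element pair GAANNTTC, present in 7.86% of promoters, was in none of the 5 member windows, and neither the second Cirbp start nor Clk3 held any of the 5 motifs. No 2 of these matches overlapped. Matches of letters describe these windows and say nothing of factor binding in these kidneys.

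Library totals lay between 9467851 and 11389479 counts. AKI_PBS replicate 3 stood apart from the other AKI_PBS libraries on the third principal component of all tested genes, with 6.27% of the variance (-44.1, against 28.3 and 20.6), and members that rest on it are given with and without it. Ptpn1, the siRNA target, was at 90.1 ± 8.91, 147 ± 23.8 and 102 ± 6.93 CPM (counts scaled to a common library size, SD, n = 3) in sham, AKI_PBS and AKI_PTPi_mEVs. It fell by 0.53 on the log2 scale from AKI_PBS to AKI_PTPi_mEVs (edgeR adjusted p = 0.00862), where 25.8% of all genes were lower. An exact permutation test of that fall gave p = 0.1, the smallest possible with 3 against 3 libraries. Against sham, Ptpn1 in AKI_PTPi_mEVs was not lower (0.18, edgeR adjusted p = 0.455). Kidney markers were abundant: 4 proximal tubule markers summed to 6260 to 7720 CPM in sham, 2010 to 3100 in AKI_PBS and 3920 to 6700 in AKI_PTPi_mEVs. The 5 listed neutrophil markers summed to 0.406 to 0.588, 7.95 to 16.6 and 1.74 to 1.98 CPM, with 2 of them at 0 counts in sham, 0 in AKI_PBS and 1 in AKI_PTPi_mEVs. Red blood cell markers summed to 91.6 to 123, 113 to 256 and 20.6 to 48.1 CPM, urothelium markers to 49 to 69, 3.69 to 14.4 and 30.5 to 125 CPM, and loop of Henle markers to 1790 to 2100, 955 to 1490 and 1400 to 1720 CPM. The part of these shifts in the members' values was not tested, and in bulk RNA fewer cells of a type and less RNA per cell cannot be told apart.

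Cirbp and Rbm3 were far higher in AKI_PBS than in sham and far lower again in AKI_PTPi_mEVs than in AKI_PBS, whereas no CLK gene approached differences of that size. Cirbp, the cold-inducible RNA-binding protein gene ENSMUSG00000045193.14, was at 80.2, 92.8 and 85.9 CPM in the sham libraries, 353, 479 and 401 CPM in AKI_PBS, and 51.6, 43.3 and 55.1 CPM in AKI_PTPi_mEVs. The 3 groups did not overlap: every AKI_PBS library lay above all others and every AKI_PTPi_mEVs library lay below every sham library. From sham to AKI_PBS the difference was 2.25 ± 0.154 on the log2 scale (SE, 95% interval 1.92 to 2.58), a 4.76-fold higher level. From AKI_PBS to AKI_PTPi_mEVs it was -3.04 ± 0.16 (-3.38 to -2.69), so that the treated kidneys held 0.122 of the AKI_PBS level. Against sham the treated kidneys were also lower, by -0.79 ± 0.151 on the log2 scale (-1.11 to -0.46), or 0.579 of the sham level.

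Rbm3, the gene ENSMUSG00000031167.17 for RNA-binding motif protein 3, was at 79.0, 65.4 and 74.2 CPM in sham, 264, 320 and 277 CPM in AKI_PBS, and 94.2, 103 and 88.4 CPM in AKI_PTPi_mEVs. These groups did not overlap either, but here the treated libraries all lay above the sham libraries. The log2 difference was 1.98 ± 0.138 (1.68 to 2.28) from sham to AKI_PBS, a 3.94-fold higher level. It was -1.59 ± 0.136 (-1.89 to -1.3) from AKI_PBS to AKI_PTPi_mEVs, to 0.331 of the AKI_PBS level. Between AKI_PTPi_mEVs and sham it was 0.38 ± 0.134 (0.094 to 0.68). Rbm3 and Cirbp therefore lay on opposite sides of sham in the treated kidneys, and the Rbm3 difference was the smaller. By the threshold used for other genes, an edgeR adjusted p under 0.05, that of Rbm3 from sham did not pass. It passed in 0 of 15 alternative ways of processing, and that of Cirbp in 15. Since these levels entered the choice of members, the passes describe the fits and are no test of either difference. A processed copy of Rbm3, Rbm3-ps, had 4, 35 and 10 counts over the sham, AKI_PBS and AKI_PTPi_mEVs groups, and the antisense gene Rbm3os had 34, 35 and 17, against at least 703 counts of Rbm3 in every library. The sources used here do not give the strand setting of the counting, and reads of overlapping genes on opposite strands cannot be told apart.

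**Figure D1:**
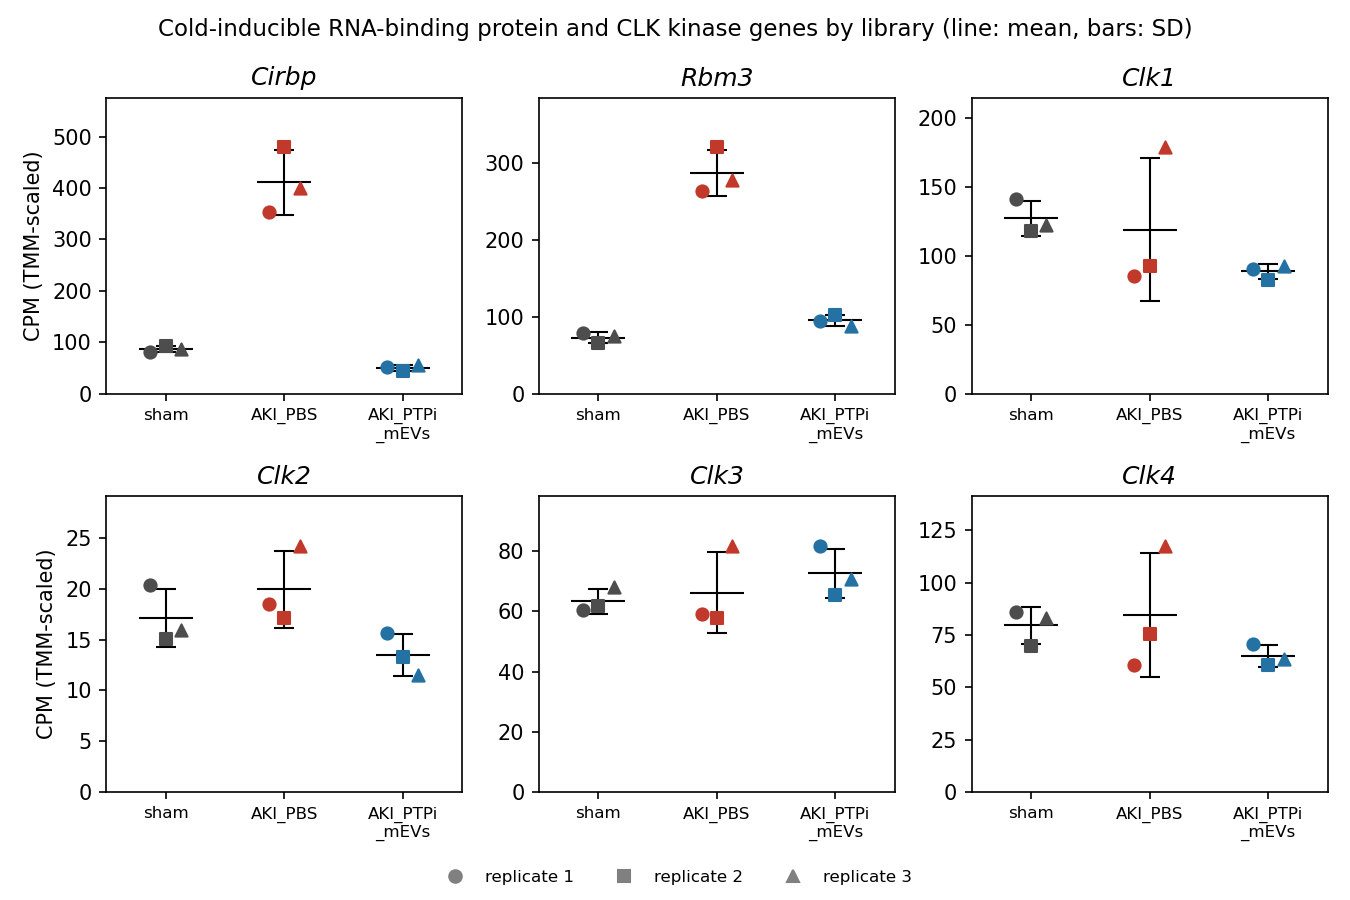
CPM of each member in each of the 9 libraries, on linear axes that start at 0, one panel per gene, with points for libraries and black lines and bars for group means ± SD (n = 3). Cirbp and Rbm3 lie at 264 CPM or more in all 3 AKI_PBS libraries and at or below 103 CPM in all other libraries, while in the CLK panels sham overlaps AKI_PBS and AKI_PBS replicate 3 is highest among the AKI_PBS points.

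The ratio of Cirbp to Rbm3 counts within a library does not depend on how libraries are scaled. It was 1.02 to 1.42 in sham, 1.34 to 1.5 in AKI_PBS and 0.422 to 0.623 in AKI_PTPi_mEVs. The sham and AKI_PBS ranges overlapped, and all 3 treated libraries lay below both. On the log2 scale the ratio was 0.25 ± 0.243 in sham, 0.51 ± 0.0819 in AKI_PBS and -0.93 ± 0.284 in AKI_PTPi_mEVs (SD, n = 3). Cirbp was thus the more counted gene in every sham and AKI_PBS library, and Rbm3 in every treated one.

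Among the kinases, Clk1 (ENSMUSG00000026034.18) was the most counted. It was at 141, 118 and 122 CPM in sham, 85.7, 92.5 and 179 CPM in AKI_PBS, and 90.6, 82.5 and 93.0 CPM in AKI_PTPi_mEVs. Replicate 3 of AKI_PBS was the highest of all 9 libraries, and the other AKI_PBS libraries lay below every sham library and among the treated ones. The log2 difference from sham to AKI_PBS was -0.096 ± 0.229 (-0.59 to 0.40) with all libraries and -0.51 ± 0.131 without AKI_PBS replicate 3. From AKI_PBS to AKI_PTPi_mEVs it was -0.42 ± 0.23 (-0.92 to 0.073), and -0.0017 without that library. Between AKI_PTPi_mEVs and sham it was -0.52 ± 0.23 (-1.02 to -0.023), and each treated library was lower than each sham library. That library is in neither group of this comparison and enters it through the shared gene filter, scaling and estimate of the spread. Without it the difference was -0.52 ± 0.117. By an edgeR adjusted p under 0.05 it did not pass with all libraries. It passed without AKI_PBS replicate 3, with no low-count filter and with only the 2 groups compared. As for Rbm3, these passes describe the fits and are no test.

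Clk4 (ENSMUSG00000020385.17), the closest relative of Clk1, was at 86.0, 69.8 and 82.9 CPM in sham, 60.5, 75.5 and 118 CPM in AKI_PBS, and 70.7, 60.6 and 63.8 CPM in AKI_PTPi_mEVs. AKI_PBS replicate 3 was again the highest of the 9, and all 3 groups overlapped. The log2 differences were 0.088 ± 0.203 (-0.35 to 0.53) from sham to AKI_PBS, turning to -0.23 without AKI_PBS replicate 3. They were -0.38 ± 0.204 (-0.82 to 0.062) from AKI_PBS to AKI_PTPi_mEVs, which became -0.060 without that library, and -0.29 ± 0.204 (-0.73 to 0.15) between AKI_PTPi_mEVs and sham. Overlapping Clk4 on the opposite strand, BC049762 had 212, 97 and 78 counts over the groups, against at least 555 Clk4 counts in each library.

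Clk2 (ENSMUSG00000068917.13) was the least counted member, with 105 to 275 counts per library, and counting error alone gives a coefficient of variation of 9.76% at the lowest. Its levels were 20.4, 15.1 and 15.9 CPM in sham, 18.5, 17.2 and 24.3 CPM in AKI_PBS, and 15.7, 13.3 and 11.5 CPM in AKI_PTPi_mEVs. The treated libraries lay below all AKI_PBS libraries and overlapped the sham libraries. The log2 difference was 0.22 ± 0.196 (-0.20 to 0.65) from sham to AKI_PBS, with 0.058 without AKI_PBS replicate 3. It was -0.56 ± 0.198 (-0.99 to -0.13) from AKI_PBS to AKI_PTPi_mEVs, to 0.678 of the AKI_PBS level, and -0.39 without that library. Between AKI_PTPi_mEVs and sham it was -0.34 ± 0.2 (-0.77 to 0.093).

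Clk3 (ENSMUSG00000032316.9) differed least. It was at 60.4, 61.7 and 68.2 CPM in sham, 59.1, 57.7 and 81.9 CPM in AKI_PBS, and 81.7, 65.6 and 70.8 CPM in AKI_PTPi_mEVs, and all groups overlapped. The log2 differences were 0.064 ± 0.156 (-0.27 to 0.40) from sham to AKI_PBS, 0.13 ± 0.156 (-0.20 to 0.47) from AKI_PBS to AKI_PTPi_mEVs and 0.20 ± 0.156 (-0.14 to 0.54) between AKI_PTPi_mEVs and sham. Without AKI_PBS replicate 3 the first turned to -0.12 and the second became 0.32. Edc3, on the opposite strand across part of Clk3, had 1063, 1164 and 1174 counts over the groups. The last interval allows a Clk3 difference of up to 0.54, so it does not show equal levels.

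**Figure D2:**
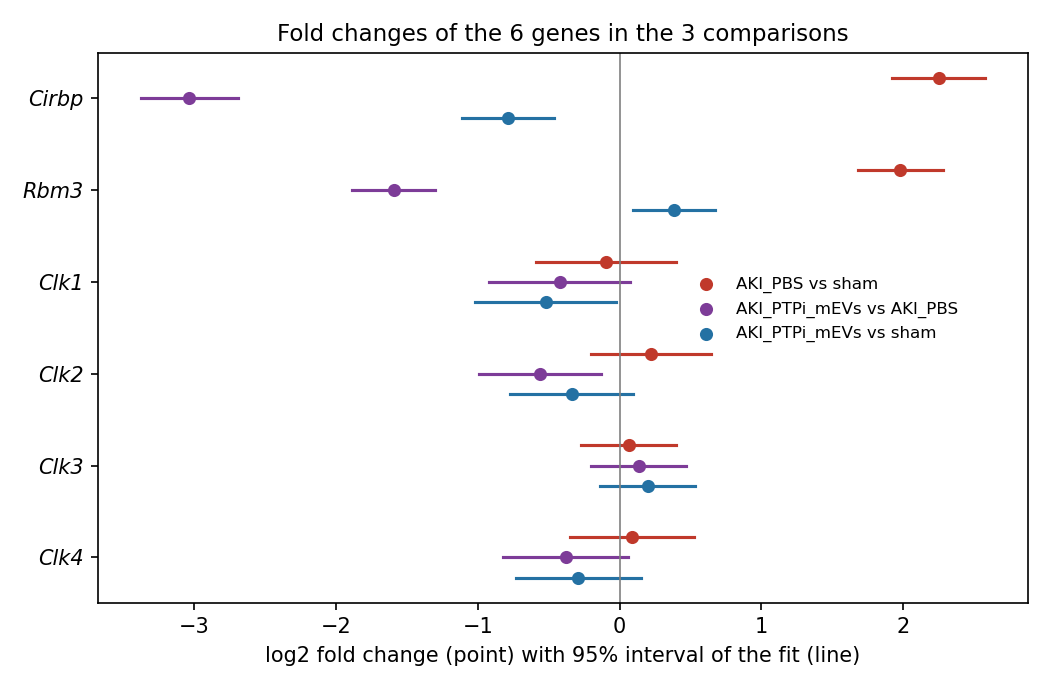
Log2 fold changes of the 6 members in the 3 comparisons, points with 95% intervals from edgeR, with a vertical line at 0. Cirbp and Rbm3 sit at 2.25 and 1.98 for AKI_PBS against sham and at -3.04 and -1.59 for AKI_PTPi_mEVs against AKI_PBS, and the CLK points lie between -0.56 and 0.22.

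The fits with AKI_PBS share those 3 libraries, so the first comparison and the second are not independent, and a gene that is high in those libraries appears higher in the one and lower in the other. Of the 17036 genes tested, 55.7% passed an adjusted p of 0.05 in AKI_PBS against sham (27.8% higher and 27.9% lower). The shares were 51.1% in AKI_PTPi_mEVs against AKI_PBS (25.4% higher, 25.8% lower) and 13.2% in AKI_PTPi_mEVs against sham (7.43% higher, 5.79% lower). By the same threshold 2, 3 and 1 of the 6 members passed, and since these contrasts entered the choice of members nothing is read from those counts. From the top, Cirbp stood at position 535 and Rbm3 at 708 of 17036 by log2 fold change in AKI_PBS against sham. From the bottom in AKI_PTPi_mEVs against AKI_PBS they stood at 158 and 998.

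Ratios between kinases were also formed within each library. The Clk4 to Clk3 count ratio was 1.13 to 1.43 in sham, 1.02 to 1.44 in AKI_PBS and 0.865 to 0.923 in AKI_PTPi_mEVs. Clk4 was thus counted more often than Clk3 in all 6 libraries without vesicles and less often in the 3 libraries with them. The Clk2 to Clk3 ratio was 0.234 to 0.338, 0.297 to 0.313 and 0.163 to 0.203, with the treated libraries again below all others. Clk1 to Clk3 gave 1.80 to 2.34, 1.45 to 2.18 and 1.11 to 1.31, in the same order. By contrast, Clk1 to Clk4 gave 1.48 to 1.69 in sham, 1.23 to 1.52 in AKI_PBS and 1.28 to 1.46 in AKI_PTPi_mEVs, so the treated range lay inside the AKI_PBS range. Clk1 to Clk2 overlapped in all groups, at 6.93 to 7.82, 4.63 to 7.36 and 5.77 to 8.06. The 3 kinase ratios in which the treated libraries lay apart all have Clk3 as denominator.

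**Figure D3:**
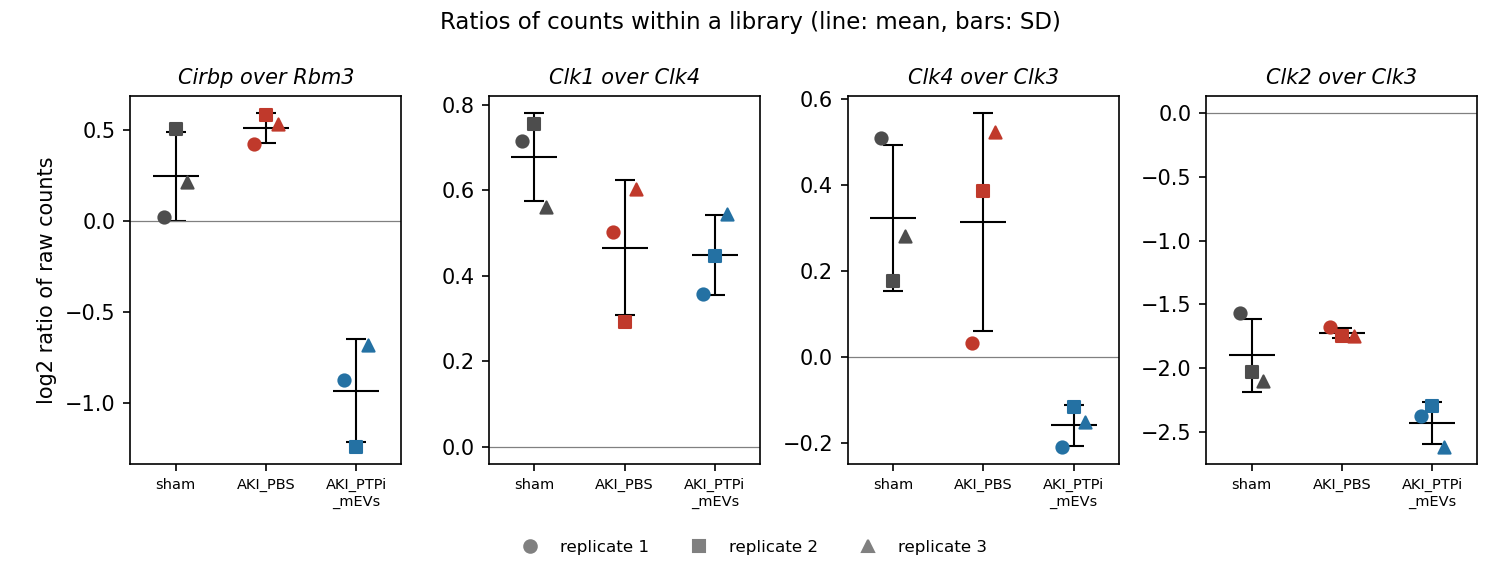
Log2 of count ratios between members within each library, one panel per ratio, points for libraries and black lines and bars for group means ± SD (n = 3). The Cirbp to Rbm3 points of AKI_PTPi_mEVs lie below 0 and those of the other groups above it, and the ratios to Clk3 are lowest in all 3 AKI_PTPi_mEVs libraries.

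Summed over the 4 kinases, the level was 308, 264 and 289 CPM in sham, 224, 243 and 403 CPM in AKI_PBS and 259, 222 and 239 CPM in AKI_PTPi_mEVs. Divided by the length of all annotated exons (GENCODE M21), Clk1 and Clk4 were close in sham, at 15.6 ± 1.5 and 13.7 ± 1.5 CPM per kilobase, followed by Clk3 at 7.50 ± 0.49 and Clk2 at 3.23 ± 0.54 (SD, n = 3). On that scale Cirbp was at 33.2 ± 2.4 and Rbm3 at 15.5 ± 1.5 in sham, and Rbm3, Clk1 and Clk4 did not differ there beyond their spread. In AKI_PBS, Cirbp stood at 158 ± 24 and Rbm3 at 61.1 ± 6.3, each above all kinases. In AKI_PTPi_mEVs, Rbm3 at 20.2 ± 1.5 and Cirbp at 19.2 ± 2.3 did not differ beyond their spread. The order of the levels depends on the exons counted. With the basic annotation, whose Clk1 exons span 1796 bases in place of 8132, Clk1 in sham was at 70.8 and Cirbp at 65.4 CPM per kilobase, and Clk2 stayed lowest in every group with both. Gene counts add all transcripts of a gene together: 7 of 13 annotated Clk1 transcripts and 7 of 14 Clk4 transcripts are retained-intron models, against 4 of 7 for Cirbp and 2 of 11 for Rbm3.

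The patterns of the members over the 9 libraries were compared with those of 11332 other tested genes by the root mean square difference of log2 CPM centred on each gene's mean. Nearest to Cirbp were Hdc, which makes histamine, at 0.26, the clock gene Per1 at 0.264 and the amine oxidase gene Aoc2 at 0.268. Per1 had means of 79.0, 269 and 40.0 CPM in sham, AKI_PBS and AKI_PTPi_mEVs. Rbm3 was not among them: it differed from Cirbp by 0.652, and 169 genes were nearer. Near to Rbm3 were Map3k9 at 0.0931 and Setd4 at 0.105. For the kinases the nearest genes were Pik3ca (0.122), Fbf1 (0.134) and Chpt1 (0.138) for Clk1, and Sox13 (0.102), Kremen1 (0.107) and Arid4a (0.109) for Clk2. They were Tmem39a (0.0561), Crkl (0.0675) and Wee1 (0.0799) for Clk3, and Ptch1 (0.0762), Slc25a16 (0.078) and Rbm48 (0.0971) for Clk4. Clk1 and Clk4 differed by 0.144, with 4 genes nearer to Clk1 than Clk4 was. These distances describe the 9 libraries, which all points share, and a gene that varies little, such as Clk3 with an SD of 0.19, has near neighbours more easily than Cirbp with 1.37.

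The SR proteins, the substrates of the CLK kinases, were taken as a list of 13, of which Srsf12 was too low to test. Of 12 tested, 4 rose and 1 fell from sham to AKI_PBS, with a median log2 change of 0.27. Over all tested genes 27.8% rose, 27.9% fell and the median was 0.028, so the count of rises was near the background. Srsf5 went from 270 ± 22.9 to 583 ± 67.8 CPM (SD, n = 3), a rise of 1.11 ± 0.134 on the log2 scale (edgeR adjusted p = 2.22e-05). Srsf3 rose by 0.96 ± 0.188 (edgeR adjusted p = 0.000886) and Srsf11 by 0.54 ± 0.126 (edgeR adjusted p = 0.00295). From AKI_PBS to AKI_PTPi_mEVs, 3 fell and 1 rose (median -0.066), where 25.8% of all genes fell and 25.4% rose (median -0.025). Srsf5 fell by 0.95 on the log2 scale, back to 302 ± 2.15 CPM (edgeR adjusted p = 9.99e-05), and Srsf11 fell by 0.73 (edgeR adjusted p = 0.000446). Between AKI_PTPi_mEVs and sham 2 of 12 were higher (median 0.14), beside 7.43% of all genes (median -0.010), Srsf10 by 0.51 ± 0.131 (edgeR adjusted p = 0.0232) and Srsf6 by 0.55 ± 0.146 (edgeR adjusted p = 0.0264). Neither stood firm, since both calls were lost without sham replicate 2, sham replicate 3 or AKI_PTPi_mEVs replicate 1 or 2, and that of Srsf6 also without sham replicate 1 or AKI_PTPi_mEVs replicate 3. The single call lower in AKI_PBS than in sham was lost without sham replicate 1 or AKI_PBS replicate 1 or 2. The rise in AKI_PTPi_mEVs against AKI_PBS, of Srsf10, was lost without AKI_PBS replicate 1 or 2 or AKI_PTPi_mEVs replicate 1 or 2, and with library totals, while 3 rose without AKI_PBS replicate 3 and 2 without AKI_PTPi_mEVs replicate 3.

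Genes with SR-like repeats or introns retained in the nucleus, most of them splicing genes, formed a list of 22. Of these, 10 rose and 3 fell from sham to AKI_PBS (median 0.33), where 27.8% of all genes rose and 27.9% fell (median 0.028). The number that changed in either direction was near the background of 55.7%, though more of the list rose than fell. From AKI_PBS to AKI_PTPi_mEVs 2 rose and 12 fell (median -0.46), where 25.4% of all genes rose and 25.8% fell. Nktr, a cyclophilin with SR repeats, was at 60.6, 53.8 and 52.0 CPM in sham, 115, 150 and 147 CPM in AKI_PBS, and 62.9, 63.4 and 59.7 CPM in AKI_PTPi_mEVs. The AKI_PBS libraries lay above both other groups, with a rise of 1.31 ± 0.137 (edgeR adjusted p = 7.32e-06) and a fall of 1.15 on the log2 scale (edgeR adjusted p = 2.86e-05). The cyclin L genes, which encode partners of splicing-linked kinases, followed: Ccnl2 rose by 0.80 ± 0.128 (edgeR adjusted p = 0.000189) and fell by 0.78 (edgeR adjusted p = 0.000315), and Ccnl1 fell by 1.11 (edgeR adjusted p = 0.000383). Snrnp70, a U1 snRNP subunit, rose by 0.68 ± 0.12 from sham to AKI_PBS (edgeR adjusted p = 0.000388). Between AKI_PTPi_mEVs and sham 0 of 22 passed in edgeR and 0 in DESeq2, with 1 higher and 1 lower at an unadjusted p under 0.05. Beside these, 7.43% of all genes were higher and 5.79% lower, so few calls were to be had and equal levels are not shown. Without AKI_PBS replicate 3 or with only the 2 groups compared, 1 of the 22 was called higher. The 2 rises from AKI_PBS to AKI_PTPi_mEVs became 1 without AKI_PTPi_mEVs replicate 1 or 2 or with only the 2 groups compared, and 0 without replicate 3 or with library totals. The nuclear RNAs Malat1 and Neat1 took the course of Nktr around AKI_PBS, but not that of the whole list, of which 3 fell from sham to AKI_PBS. Together Malat1 and Neat1 made up 0.315% to 0.362% of counts in sham, 0.699% to 1.01% in AKI_PBS and 0.322% to 0.337% in AKI_PTPi_mEVs. Their part in the result was not tested.

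Other kinases of the CMGC family, to which the CLK kinases belong, were taken as a list of 12, of which Dyrk4 was too low to test. Of 11 tested, 6 rose and 0 fell from sham to AKI_PBS in edgeR (median 0.65, all genes 0.028), with 1 fall at an unadjusted p under 0.05 and 0 in DESeq2. The share that changed was near the 55.7% of all genes, of which 27.8% rose and 27.9% fell. A fall of 1 of the 11 was called without AKI_PBS replicate 3 or AKI_PTPi_mEVs replicate 2, with no low-count filter and with the replicate block. From AKI_PBS to AKI_PTPi_mEVs 1 rose and 6 fell (median -0.80), beside 25.4% and 25.8% of all genes. Hipk3, a homeodomain-interacting kinase, was at 60.7, 56.2 and 60.8 CPM in sham, 105, 139 and 171 CPM in AKI_PBS, and 67.9, 73.1 and 66.1 CPM in AKI_PTPi_mEVs. It rose by 1.23 ± 0.162 (edgeR adjusted p = 4.57e-05) and fell by 1.0 (edgeR adjusted p = 0.000264). Hipk1 rose by 0.75 ± 0.137 (edgeR adjusted p = 0.000513) and fell by 0.94 (edgeR adjusted p = 0.000141), Dyrk2 rose by 0.73 ± 0.151 (edgeR adjusted p = 0.00124), and Dyrk1a fell by 0.83 (edgeR adjusted p = 0.000663). In AKI_PTPi_mEVs against sham 7.43% of all genes were higher and 5.79% lower. Of the 11 kinases 0 passed in edgeR, which does not show equal levels, with 1 higher and 1 lower at an unadjusted p under 0.05. DESeq2 gave the same counts of 1 higher and 1 lower. The nearest were Srpk1, an SR protein kinase, with 0.37 ± 0.125 (edgeR adjusted p = 0.0656, 0.0425 without AKI_PBS replicate 3), and Dyrk1b with -0.87 ± 0.31 (edgeR adjusted p = 0.0809). Dyrk1b passed without AKI_PBS replicate 3 (edgeR adjusted p = 0.0379), without AKI_PTPi_mEVs replicate 3 (edgeR adjusted p = 0.0402) and under the replicate block (edgeR adjusted p = 0.0385). It also passed with only the 2 groups compared (edgeR adjusted p = 0.0394), with no low-count filter (edgeR adjusted p = 0.00627) and in DESeq2 (adjusted p = 0.0441).

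Relatives of CIRBP and RBM3 with a single RNA recognition motif and genes with a cold shock domain formed a list of 9, of which Lin28a and Lin28b were too low to test. Of 7 tested, 5 rose and 1 fell from sham to AKI_PBS (median 0.48), beside 27.8% and 27.9% of all genes (median 0.028). Ybx3, a cold shock domain protein, was at 24.3, 15.6 and 15.4 CPM in sham, 65.2, 74.5 and 52.0 CPM in AKI_PBS, and 19.9, 32.2 and 17.8 CPM in AKI_PTPi_mEVs. It rose by 1.79 ± 0.245 (edgeR adjusted p = 6.01e-05), the Y-box gene Ybx1 by 0.97 ± 0.146 (edgeR adjusted p = 0.000122) and Carhsp1 by 1.02 ± 0.151 (edgeR adjusted p = 0.000101). Without sham replicate 2 or AKI_PBS replicate 1, 3 of the 5 rises passed. The number was 4 without sham replicate 1 or 3, AKI_PBS replicate 2 or 3, or AKI_PTPi_mEVs replicate 2 or 3. It was also 4 with no low-count filter, with the replicate block and with only the 2 groups compared. From AKI_PBS to AKI_PTPi_mEVs 2 of 7 fell, Ybx3 by 1.46 (edgeR adjusted p = 0.00034) and Ybx1 by 0.98 (edgeR adjusted p = 0.000148). None rose by edgeR, by DESeq2 or at an unadjusted p under 0.05, and the median was -0.18. In DESeq2 and at an unadjusted p under 0.05, 3 fell. Beside these counts 25.8% of all genes fell and 25.4% rose, so the falls were near the background. Without AKI_PBS replicate 3, 3 of the list fell and 1 rose. Against sham, 1 of 7 was called higher and 1 lower, beside 7.43% and 5.79% of all genes. Carhsp1 was higher by 0.65 ± 0.15 (edgeR adjusted p = 0.0139) and Ybx2 lower, by -1.01 ± 0.243 (edgeR adjusted p = 0.0173). The Carhsp1 call was lost without sham replicate 3 or AKI_PTPi_mEVs replicate 2, and the Ybx2 call without sham replicate 1 or AKI_PTPi_mEVs replicate 2.

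Heat shock factor 1 genes respond to warming, the opposite stimulus, and they changed in both directions in the comparisons with AKI_PBS. Of 21, 8 rose and 6 fell from sham to AKI_PBS (median -0.23), beside 27.8% and 27.9% of all genes. In AKI_PTPi_mEVs against AKI_PBS 9 rose and 4 fell (median 0.20), beside 25.4% and 25.8%. Chordc1, a co-chaperone of HSP90, ran opposite to Cirbp around AKI_PBS: it was at 73.5, 74.6 and 89.4 CPM in sham, 33.3, 36.3 and 40.6 CPM in AKI_PBS, and 129, 139 and 112 CPM in AKI_PTPi_mEVs. It fell by 1.11 (edgeR adjusted p = 3.44e-05), rose by 1.79 ± 0.143 (edgeR adjusted p = 2.1e-06) and ended 0.68 ± 0.139 above sham (edgeR adjusted p = 0.00791), with no overlap between groups. The co-chaperone Bag3 and the small heat shock protein Hspb1 took the course of Cirbp around AKI_PBS. Bag3 went from 28.9 ± 2.56 to 91.7 ± 15.4 and 37.6 ± 3.71 CPM (SD, n = 3), with a rise of 1.67 ± 0.156 (edgeR adjusted p = 3.13e-06) and a fall of 1.28 (edgeR adjusted p = 2.98e-05). Hspb1 went from 26.1 ± 6.23 to 210 ± 71.3 and 40.2 ± 12.8 CPM, with a rise of 3.01 ± 0.296 (edgeR adjusted p = 6.5e-06) and a fall of 2.39 (edgeR adjusted p = 4.11e-05). Against sham 7 of 21 were higher in AKI_PTPi_mEVs by edgeR (median 0.38), 8 by DESeq2 and 11 at an unadjusted p under 0.05. By each of these 0 were lower. Over all genes 7.43% were higher and 5.79% lower. Among the 7 were Serpinh1, the collagen chaperone, by 0.79 ± 0.174 (edgeR adjusted p = 0.0107) and Stip1 by 0.68 ± 0.153 (edgeR adjusted p = 0.0125). With libraries left out, the number of 7 lay between 1, without AKI_PTPi_mEVs replicate 2, and 8, and was 2 without sham replicate 2, 3 without sham replicate 1 or AKI_PTPi_mEVs replicate 1, and 4 without sham replicate 3 or AKI_PTPi_mEVs replicate 3. With no low-count filter it was 9, with library totals 6, and with relative log expression scaling or the replicate block 5. Serpinh1 lost its call without AKI_PTPi_mEVs replicate 2, and Stip1 without that library or sham replicate 2. In AKI_PBS against sham the 8 rises became 4 without any 1 of sham replicates 1 and 2 or of the 3 AKI_PTPi_mEVs libraries and 5 without AKI_PBS replicate 2. They became 4 with only the 2 groups compared and 5 with no low-count filter, and the 6 falls became 4 without sham replicate 2 and 3 without sham replicate 3. The 4 falls from AKI_PBS to AKI_PTPi_mEVs became 2 without AKI_PTPi_mEVs replicate 1 or 3 or with no low-count filter.

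**Figure D4:**
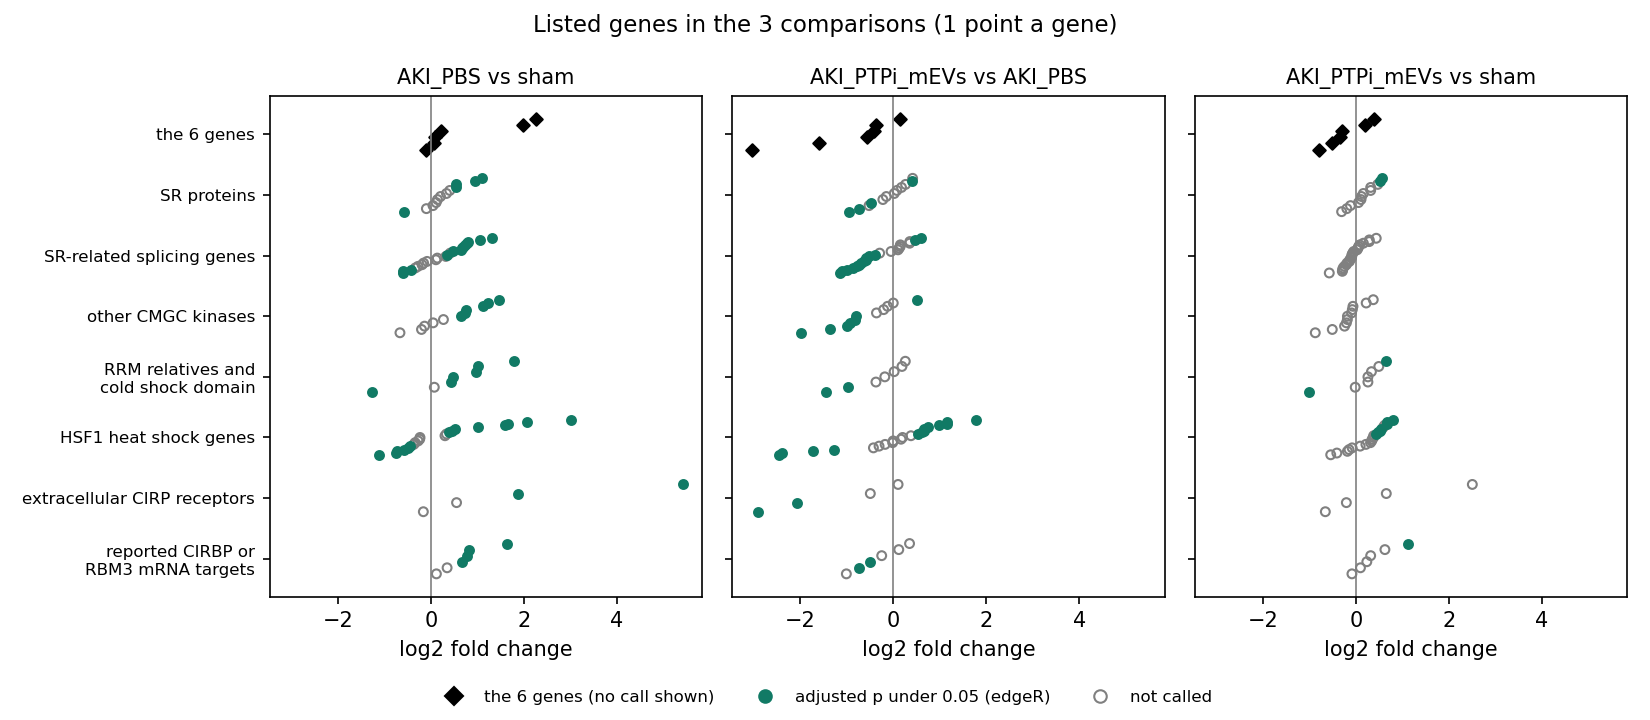
Log2 fold changes of the listed genes by list in the 3 comparisons, on a shared axis in log2 units, with filled points for genes with an edgeR adjusted p under 0.05, open points for the others and black diamonds for the 6 members, which carry no call. Cirbp at -3.04 lies at the lower end of the AKI_PTPi_mEVs against AKI_PBS panel, and Chordc1 at 1.79 lies on the other side of 0.

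Outside the cell, CIRBP is reported to act on TLR4 with its partner MD-2 (Ly96), on TREM-1 and on the interleukin 6 receptor. Il6ra was at 10.2, 7.53 and 6.40 CPM in sham, 26.4, 26.3 and 35.3 CPM in AKI_PBS, and 8.90, 5.46 and 6.49 CPM in AKI_PTPi_mEVs. Of the 4 receptor genes 2 rose from sham to AKI_PBS and 2 fell from AKI_PBS to AKI_PTPi_mEVs, Il6ra and Trem1 in both cases. Over all genes 27.8% rose in the first comparison and 25.8% fell in the second. Nothing particular to the list is read from these counts. Il6ra rose by 1.86 ± 0.233 (edgeR adjusted p = 2.94e-05) and fell by 2.07 (edgeR adjusted p = 2.15e-05). Trem1, a receptor of myeloid cells, had 1 count over the sham libraries, 65 over AKI_PBS and 7 over AKI_PTPi_mEVs. The ratio of AKI_PBS to sham was 61.2 with an exact 95% counting interval of 10.6 to 2450, and that of AKI_PTPi_mEVs to sham 7.27 (0.934 to 328). Trem1 fell by 2.91 on the log2 scale from AKI_PBS to AKI_PTPi_mEVs (edgeR adjusted p = 0.000502). The summed neutrophil markers took the same order of groups, and their part was not tested. Tlr4 did not pass between AKI_PTPi_mEVs and sham, with 0.65 ± 0.301 (edgeR adjusted p = 0.17).

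Of 6 mRNAs reported as targets of CIRBP or RBM3, 4 rose from sham to AKI_PBS (median 0.72), beside 27.8% of all genes (median 0.028), and nothing particular to the list is read from this. The clock gene Clock was at 38.5, 35.2 and 36.0 CPM in sham, 62.8, 66.4 and 64.9 CPM in AKI_PBS, and 41.0, 48.1 and 47.6 CPM in AKI_PTPi_mEVs. The 3 groups did not overlap, and Clock rose by 0.82 ± 0.124 (edgeR adjusted p = 0.000123) and fell by 0.50 (edgeR adjusted p = 0.00439). Rpa2, a subunit of the single-stranded DNA binding complex, rose by 0.77 ± 0.191 from sham to AKI_PBS (edgeR adjusted p = 0.00401) and was higher by 1.12 ± 0.191 in AKI_PTPi_mEVs than in sham (edgeR adjusted p = 0.00302). Tert, the telomerase reverse transcriptase gene, rose by 1.64 ± 0.438 in AKI_PBS (edgeR adjusted p = 0.00796). Txn1, thioredoxin, fell by 0.75 from AKI_PBS to AKI_PTPi_mEVs (edgeR adjusted p = 0.00713), where 2 of 6 fell (median -0.38), beside 25.8% of all genes. Without AKI_PBS replicate 3 those counts were 3 lower and 1 higher.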

How the data were processed

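RNA from wild-type mouse kidney was sequenced in 9 libraries (3 groups of 3). Each was made with a Tn5-based kit, per the labels' protocols, from total RNA (100 ng). The deposited values are whole-number counts per gene, made with STAR and HTSeq (no versions given) per the submitters' processing notes. These notes name GRCh38.p14, a human build, but the genes carry mouse Ensembl identifiers, and the build behind the counts was not settled. For filters and the strand setting, the entry is likewise not given in the sources used here. One treated title spells the vesicles PTP@mEVs, and groups follow the treatment label. Of the identifiers, 52073 matched a symbol and 4850 did not. No libraries were duplicates.

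In edgeR 4.0.16 (R 4.3.3), filterByExpr kept 17036 genes, TMM factors gave CPM, and glmQLFit (robust) was fitted to all 9 libraries, with 6 residual degrees of freedom. Groups were compared by glmQLFTest with Benjamini-Hochberg adjustment over all tested genes, and an adjusted p under 0.05 is a call. Replicate numbers did not pair the libraries (correlations -0.187 to 0.111). The steps were run on simulated data in which few genes changed, so that run does not cover the wide change seen here. Library totals, which bound the precision, were 9467851 to 11389479. Counting intervals cover counting error only, since reads carried no molecular identifiers.

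The members and lists were chosen with earlier results of these data known. Named genes are the members, up to 3 called genes with the smallest adjusted p per list and comparison (2 where none passed), the 3 genes nearest each member among those with a mean log2 CPM (prior count 2) of at least 2, Ptpn1, Malat1, Neat1 and cell markers. One gene that this rule names is not reported here. Promoters are from RefSeq (GRCm38.p6) and exon lengths from GENCODE M21. Alternatives were scaling by library totals or by relative log expression, no low-count filter, a replicate block, only the 2 groups compared, DESeq2 1.42.0, and each library left out. Figures were drawn with matplotlib 3.10.9 under Python 3.11.15.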

Additional observations from a re-analysis of the deposited data

How the results depend on the processing

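Over the 15 alternatives, Cirbp ranged over 2.13 to 2.35 for AKI_PBS against sham, -3.15 to -2.91 for AKI_PTPi_mEVs against AKI_PBS and -0.86 to -0.71 for AKI_PTPi_mEVs against sham, and Rbm3 over 1.89 to 2.06, -1.70 to -1.51 and 0.32 to 0.45. With each library left out in turn, Clk1 ranged over -0.51 to 0.089 for AKI_PBS against sham, Clk3 over -0.12 to 0.16 and Clk4 over -0.23 to 0.28, and for AKI_PTPi_mEVs against sham Malat1 over -0.11 to 0.051 and Neat1 over -0.042 to 0.13. The cause was not tested. Of 270 member values under alternatives, 254 kept direction and side of the threshold, as did 880 of 914 for other named genes.

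In AKI_PTPi_mEVs against sham, 2 members (Cirbp and Clk1) passed without the low-count filter and 2 (the same) with only the 2 groups compared, against 1 (Cirbp). With only the 2 groups compared 1538 genes were called lower, against 986. Leaving out a library gave 2 to 5 members called for AKI_PTPi_mEVs against AKI_PBS (5 without AKI_PBS replicate 1) and 1 to 2 against sham. For AKI_PTPi_mEVs against sham it gave 878 genes called (without AKI_PTPi_mEVs replicate 2) to 3395 (without AKI_PBS replicate 3), 488 to 1917 of them higher and 390 to 1478 lower, and 2 to 17 listed genes. For AKI_PBS against sham it gave 8028 to 9650 genes and 2 to 3 members, and for AKI_PTPi_mEVs against AKI_PBS 7337 to 8743 genes.

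With the replicate block, the comparisons called 9213, 8491 and 2050 genes and 2, 3 and 1 members, and of the genes named in the report it changed these calls: Dyrk1b passed in AKI_PTPi_mEVs against sham and in AKI_PBS against sham (edgeR adjusted p = 0.0286), Serpinh1 in AKI_PBS against sham (0.0499) and Tert in AKI_PTPi_mEVs against AKI_PBS (0.000901), while Srsf3 in the latter (0.0576) no longer passed. Library totals moved the median of all genes by -0.106 (log2) for AKI_PTPi_mEVs against AKI_PBS, with 3757 genes higher and 5048 lower. Depth limits Clk2 most, with 105 counts in its lowest library.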
